A study of Mus musculus with 4 samples.

Results

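Activator protein 1 (AP-1) is a dimer of basic leucine zipper (bZIP) transcription factors, and 10 genes of this kind were followed here among 34745 genes counted. They were chosen by name, as the rows of the count table whose Ensembl identifier carries the symbol Fos, Fosb, Fosl1, Fosl2, Jun, Junb, Jund, Atf3, Batf or Maff. All 10 were found and all 10 passed the filter on low counts. RNA was sequenced from primary bone marrow-derived macrophages of C57BL/6 mice. There were 2 libraries from cells transfected with Acly-E14 siRNA, a small interfering RNA named for the ATP citrate lyase gene, and 2 from cells transfected with control siRNA. Lipopolysaccharide (LPS), a bacterial wall component that activates macrophages, was given to all 4 cultures, so no library shows cells without LPS. The labels give no age, dose or time. They do not say whether the libraries within a group were made from different cultures or mice, so each p-value reflects the spread among these 4 libraries alone, and that spread may be technical.

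FOS proteins bind DNA mainly as partners of JUN proteins, while JUN proteins can also pair with each other. In macrophages, LPS signals through MAP kinases that phosphorylate existing AP-1 proteins and switch on Fos, Jun and Atf3 within minutes as immediate early genes. BATF lacks a transactivation domain and pairs with JUN proteins. MAFF, a small MAF protein, lacks one too and pairs with NRF2-type factors.

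Depth was even, between 21023197 and 21837806 counts per library. Acly itself stood at 118 and 127 CPM (counts scaled to library size with trimmed-mean factors) in Acly-E14 siRNA libraries, against 158 and 154 CPM in control libraries. Its log2 fold change was -0.35 (SE 0.060, edgeR adjusted p = 0.0086). Without control library 1 the adjusted p of Acly was 0.058. Of 20 macrophage markers, 18 were tested, of which 4 rose, 8 fell and 6 did not pass. Cd163 and Cx3cr1 were at or near 0 in all 4 libraries. Lymphocyte markers were at or near 0 as well, with Cd3e and Ncr1 at 0 counts throughout. Across the 13108 genes tested, 33.2% were called at an edgeR adjusted p under 0.05, with 17.3% of genes higher and 15.9% lower after Acly-E14 siRNA. The number called was 4354 with all libraries, 2864 without Acly-E14 siRNA library 1, 2088 without Acly-E14 siRNA library 2 and 2157 without control library 1. Higher genes made up 52.0% of the calls with trimmed-mean scaling. That share was 65.75% when only library totals were used, and 65.77% in a limma fit of log2(FPKM + 1).

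Of the 10 bZIP genes, 4 were called and all 4 were higher in Acly-E14 siRNA libraries, namely Fosl1, Fosl2, Jund and Batf. That is beside 33.2% of all genes called in either direction and 17.3% called higher. None was called lower at that threshold by edgeR without a block for the replicate number, although Atf3 had an unadjusted p of 0.029. DESeq2 also called 4 higher and 0 lower. The median log2 fold change over the 10 was 0.074, beside 0.0027 over all genes tested. In 8 of the 10 both libraries of one group lay beyond both of the other, as did 70.6% of all genes tested. The 2 genes with overlapping groups were Jun and Maff.

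**Figure D1:**
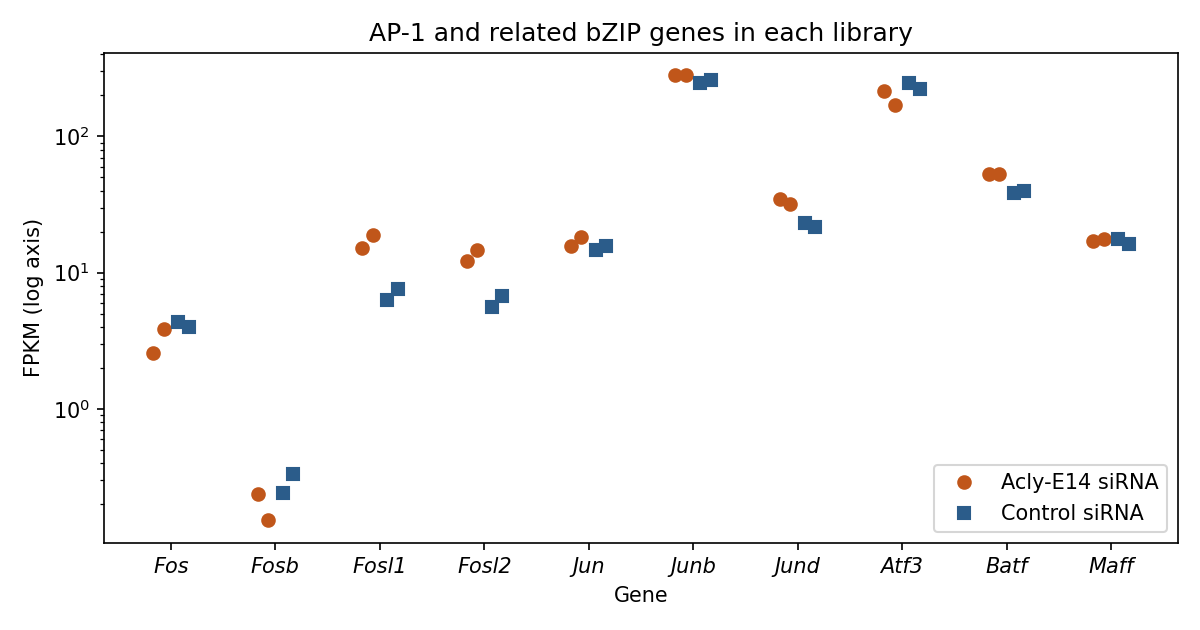
Fragments per kilobase of gene length, scaled to library size (FPKM, log axis), of the 10 genes in every library, with 1 point per library, circles for Acly-E14 siRNA and squares for control siRNA. Junb and Atf3 were the most abundant and Fosb the least, and the groups were farthest apart for Fosl1 and Fosl2.

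DNA upstream of these genes is shown because 2 called members (Jund and Batf) can be set beside 2 that were not called (Fos and Jun). RefSeq windows of the GRCm38.p6 build, 250 bases before to 50 after an annotated start, matched 9 of the 10 genes, all but Fosl1, with 11 windows. Each line below runs 5′ to 3′ in the direction of the gene up to the base before the RefSeq start, except that Batf stops where the GENCODE exon begins. The Jund start lies 1210 bases upstream of the GENCODE start of that gene. Capitals mark a match, on either strand, to TGACNTCA or to the NF-kB motif. The AP-1 site and the CArG box were searched too and had no match.
Jund, chr8:70697489-70697738, plus strand: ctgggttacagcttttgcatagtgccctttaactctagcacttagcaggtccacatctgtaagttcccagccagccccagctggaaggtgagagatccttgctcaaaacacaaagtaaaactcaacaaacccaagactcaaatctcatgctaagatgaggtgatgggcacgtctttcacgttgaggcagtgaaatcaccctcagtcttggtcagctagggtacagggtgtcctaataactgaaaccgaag
Batf, chr12:85686470-85686668, plus strand: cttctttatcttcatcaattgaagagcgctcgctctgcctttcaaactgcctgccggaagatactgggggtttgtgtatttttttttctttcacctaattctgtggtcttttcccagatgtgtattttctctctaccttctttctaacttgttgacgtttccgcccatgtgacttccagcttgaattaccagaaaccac
Fos, chr12:85473640-85473889, plus strand: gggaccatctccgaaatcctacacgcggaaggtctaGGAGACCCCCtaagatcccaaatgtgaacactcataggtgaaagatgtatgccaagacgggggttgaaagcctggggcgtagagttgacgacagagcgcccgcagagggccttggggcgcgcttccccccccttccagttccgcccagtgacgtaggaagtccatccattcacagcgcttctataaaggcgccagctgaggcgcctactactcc
Jun, chr4:95052223-95052472, minus strand: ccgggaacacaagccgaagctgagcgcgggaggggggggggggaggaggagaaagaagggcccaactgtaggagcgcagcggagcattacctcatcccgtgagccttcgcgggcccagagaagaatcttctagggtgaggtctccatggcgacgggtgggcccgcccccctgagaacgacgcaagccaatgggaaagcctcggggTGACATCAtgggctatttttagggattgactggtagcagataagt

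The letters TGANTCA, the consensus AP-1 site, were in 0 of the 11 windows and in 7.81% of 32851 RefSeq windows of the same length. The cyclic AMP response element TGACGTCA (CRE) was in 1 of the 11, a window of Maff, and in 1.79% of all windows. The looser TGACNTCA, which was chosen after the sequences were seen and takes in every CRE match, was in 3 of the 11 and in 8.83% of all. In Jun it lay at -45 to -38 from the start. The NF-kB motif was in 4 of the 11, 1 each of Fos, Fosb, Fosl2 and Maff, and in 8.46% of all. The CArG box, bound by serum response factor, was in 0 of the 11 and in 1.63% of all. Sites further than 250 bases before a start were not searched for any motif. A CArG box further upstream, at Fos or another member, would therefore be missed. Short stretches around the matches in a called and an uncalled gene follow. The Fosl2 stretch lies inside an exon of the GENCODE gene, whose start is 671 bases further upstream. Its capitals cover 2 overlapping matches to the NF-kB motif, 1 per strand, and those of Maff cover the CRE.
Fosl2, chr5:32136280-32136309, plus strand: agatcggggaGGGAGTCCCCCagagctgcc
Maff, chr15:79347480-79347509, plus strand: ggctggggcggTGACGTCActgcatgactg

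Within the FOS family, the Fos-related antigens rose in Acly-E14 siRNA libraries and Fos and Fosb did not pass the test. Fosl1 encodes FRA1, which lacks the transactivation domain of FOS. Fosl1 (chromosome 19, 5447547 to 5455946, plus strand, mm10) stood at 25.4 and 31.2 CPM in Acly-E14 siRNA libraries, against 11.3 and 13.2 CPM in controls. Both Acly-E14 siRNA libraries were above both controls. The fold change was 2.31 (95% interval 1.82 to 2.94, log2 1.21, SE 0.14, edgeR adjusted p = 0.0029), the largest rise of the 10 genes. Exons of Fosl1 share 1163 bases with Ccdc85b on the other strand, and whether counting used strand is not given in the sources used here. Ccdc85b had 41 and 40 counts in Acly-E14 siRNA libraries, against 37 and 29 in controls, while Fosl1 had 556 and 684 counts against 227 and 282.

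Fosl2 encodes FRA2, the other Fos-related antigen. The gene (chromosome 5, 32135801 to 32157842, plus strand) overlaps no other exon in GENCODE. Fosl2 stood at 137 and 164 CPM in Acly-E14 siRNA libraries, against 68.2 and 79.4 CPM in controls. The groups did not overlap, and library 2 was the higher one in each group. The fold change was 2.04 (95% interval 1.68 to 2.47, log2 1.03, SE 0.11, edgeR adjusted p = 0.0026). Fosl1 and Fosl2 were the only members called beyond 1 on the log2 scale, where 9.16% of all genes tested were called in either direction and 7.49% higher.

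Fos, the founding immediate early gene of the family (chromosome 12, 85473890 to 85477273, plus strand), was low in all 4 libraries. Fos stood at 9.43 and 14.1 CPM in Acly-E14 siRNA libraries, against 17.1 and 15.4 CPM in controls. The log2 fold change of Fos was -0.47 (95% interval -0.95 to 0.021, edgeR adjusted p = 0.12). Acly-E14 siRNA library 1 was far below the other 3 libraries, and without library 2 the log2 fold change of Fos was -0.79 (adjusted p = 0.029). Fosb (chromosome 7, 19302696 to 19310051, minus strand) had 19 and 12 counts in Acly-E14 siRNA libraries, against 19 and 27 in controls. At that depth its log2 fold change of -0.64 had a 95% interval of -1.59 to 0.31 (edgeR adjusted p = 0.25). It was -1.002 without Acly-E14 siRNA library 1, -0.34 without Acly-E14 siRNA library 2 and -0.41 without control library 2.

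In the JUN family, Jund rose while Junb and Jun did not pass the test. Jund, which is often constitutively expressed where its relatives are induced, is a gene of 1 exon (chromosome 8, 70698949 to 70700616, plus strand). It stood at 97.4 and 88.8 CPM in Acly-E14 siRNA libraries, against 70.0 and 64.0 CPM in controls. The groups were well apart, and library 1 was the higher one in each. Its fold change was 1.39 (95% interval 1.22 to 1.59, log2 0.47, SE 0.078, edgeR adjusted p = 0.0077). Jund shares 877 exon bases with the opposite-strand gene Gm11175, which had between 0 and 7 counts per library.

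Junb encodes a weaker activator than JUN and had the highest mean FPKM of the 10 genes in each group. Junb (chromosome 8, 84974484 to 84978718, minus strand) stood at 505 and 499 CPM in Acly-E14 siRNA libraries, against 471 and 485 CPM in controls. Its groups did not overlap, but the fold change was 1.05 (95% interval 0.963 to 1.14, edgeR adjusted p = 0.34). It shares 173 exon bases with Prdx2 on the other strand, which stood at 88.1 and 91.9 CPM against 79.9 and 82.5 CPM in controls. Jun (chromosome 4, 95049034 to 95052222, minus strand) encodes the classic partner of FOS. Jun stood at 49.1 and 56.2 CPM in Acly-E14 siRNA libraries, against 48.5 and 51.3 CPM in controls, and the groups overlapped. The fold change of Jun was 1.06 (95% interval 0.908 to 1.23, edgeR adjusted p = 0.54). The interval left room for a change of Jun of up to 1.23-fold. Jun shares 232 exon bases with Junos, which had between 9 and 17 counts.

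Of the 3 members outside the FOS and JUN families, Batf passed the test and Atf3 and Maff did not. Batf, whose protein pairs with JUN and cooperates with IRF factors, rose. It is on chromosome 12, 85686669 to 85709087, plus strand. Batf stood at 49.7 and 48.8 CPM in Acly-E14 siRNA libraries, against 38.0 and 38.7 CPM in controls. Replicates of Batf lay within 1 CPM of each other, far less than the gap between groups. The fold change of Batf was 1.28 (95% interval 1.14 to 1.44, log2 0.36, SE 0.068, edgeR adjusted p = 0.012). Leaving out single libraries ended the call in 3 of 4 cases, with an adjusted p of 0.061 without Acly-E14 siRNA library 1 and of 0.059 without either Acly-E14 siRNA library 2 or control library 1.

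Atf3 encodes a repressor that limits inflammatory gene transcription after LPS. Atf3 (chromosome 1, 191170296 to 191218039, minus strand) stood at 542 and 423 CPM in Acly-E14 siRNA libraries, against 657 and 584 CPM in controls. All Acly-E14 siRNA values were below the controls, but library 1 lay close to the lower control. The log2 fold change of Atf3 was -0.36 (95% interval -0.67 to -0.053, edgeR adjusted p = 0.074). Without Acly-E14 siRNA library 1 it was -0.55 (adjusted p = 0.017). Maff (chromosome 15, 79346621 to 79359076, plus strand) stood at 35.4 and 36.3 CPM in Acly-E14 siRNA libraries, against 39.1 and 34.9 CPM in controls. The control libraries spanned both Acly-E14 siRNA values. The fold change of Maff was 0.969 (95% interval 0.836 to 1.12, edgeR adjusted p = 0.72), and its log2 value of -0.045 turned to 0.047 with library totals in place of trimmed-mean factors.

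**Figure D2:**
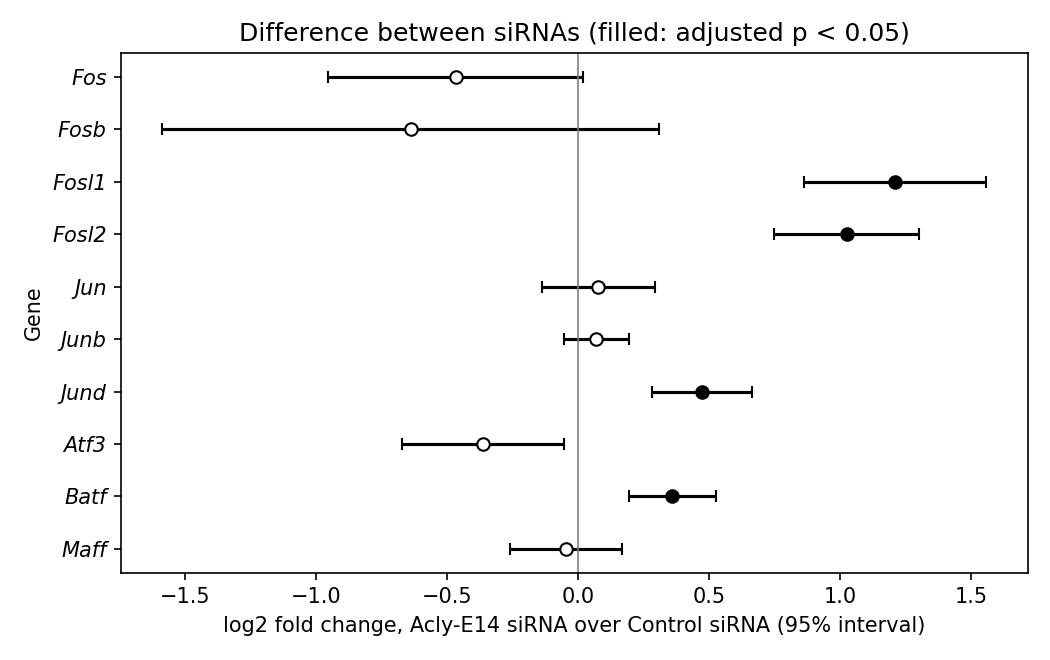
Log2 fold change of each gene, Acly-E14 siRNA over control siRNA, with its 95% interval from edgeR, filled where the adjusted p was under 0.05. The 4 filled genes, Fosl1, Fosl2, Jund and Batf, lay between 0.36 and 1.21, and the interval of Fosb was the widest.

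Levels were compared between genes per length, in FPKM. These values use library totals with no trimmed-mean factor and, for each gene, the length implied by the deposited FPKM. That length was longer than the merged GENCODE exons for some members, Fos and Jund among them. For others, such as Batf and Fosl1, it was shorter, so the order of the genes depends on the length taken. Control means ran, from high to low, as Junb (252 FPKM), Atf3 (234), Batf (38.9), Jund (22.5), Maff (16.9), Jun (15.2), Fosl1 (6.95), Fosl2 (6.16), Fos (4.15) and Fosb (0.285). Fosl1 and Fosl2, neighbours in that order, overlapped in control libraries, at 6.33 and 7.56 FPKM for Fosl1 and 5.63 and 6.69 FPKM for Fosl2. Junb and Atf3 overlapped as well, at 245.28 and 258 FPKM for Junb and 245.50 and 223 FPKM for Atf3. Maff at 17.7 and 16.1 FPKM lay just above Jun at 14.6 and 15.8 FPKM. In Acly-E14 siRNA libraries Fosl1 reached 15.3 and 19.0 FPKM, level with Jun at 15.8 and 18.3 FPKM and with Maff at 17.1 and 17.8 FPKM. Fosl2 reached 12.1 and 14.6 FPKM in the same libraries.

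The make-up of the FOS family transcripts differed between the groups. Fosl1 and Fosl2 together made up 90.8% and 89.3% of the family's summed FPKM in Acly-E14 siRNA libraries, against 72.4% and 76.8% in controls. Fos made up 8.45% and 10.3% in Acly-E14 siRNA libraries, against 26.1% and 21.5% in controls. The ratio of Fosl1 to Fos, in FPKM, was 6.00 and 4.92 in Acly-E14 siRNA libraries, against 1.47 and 1.90 in controls. The level of such a ratio depends on the implied gene lengths, so it does not settle which gene was more abundant. The fold difference of the ratio between groups does not depend on them. Shares and sums, here and in the JUN family, depend on the implied lengths as well. The whole family summed to 30.2 and 37.6 FPKM in Acly-E14 siRNA libraries, against 16.5 and 18.6 FPKM in controls. These shares were chosen after the single genes had been seen, and a comparison of 2 libraries with 2 by exact permutation cannot give a two-sided p below 0.333.

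Shares within the JUN family lay closer together. Junb made up 84.8% and 84.8% of the summed FPKM in Acly-E14 siRNA libraries, against 86.6% and 87.3% in controls. Jund made up 10.4% and 9.66% in Acly-E14 siRNA libraries, against 8.23% and 7.36% in controls. The JUN family summed to 332 and 332 FPKM in Acly-E14 siRNA libraries, against 283 and 296 FPKM in controls. It outweighed the FOS family in every library. The sums of both families use library totals, under which the median log2 fold change over all genes tested was 0.094.

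**Figure D3:**
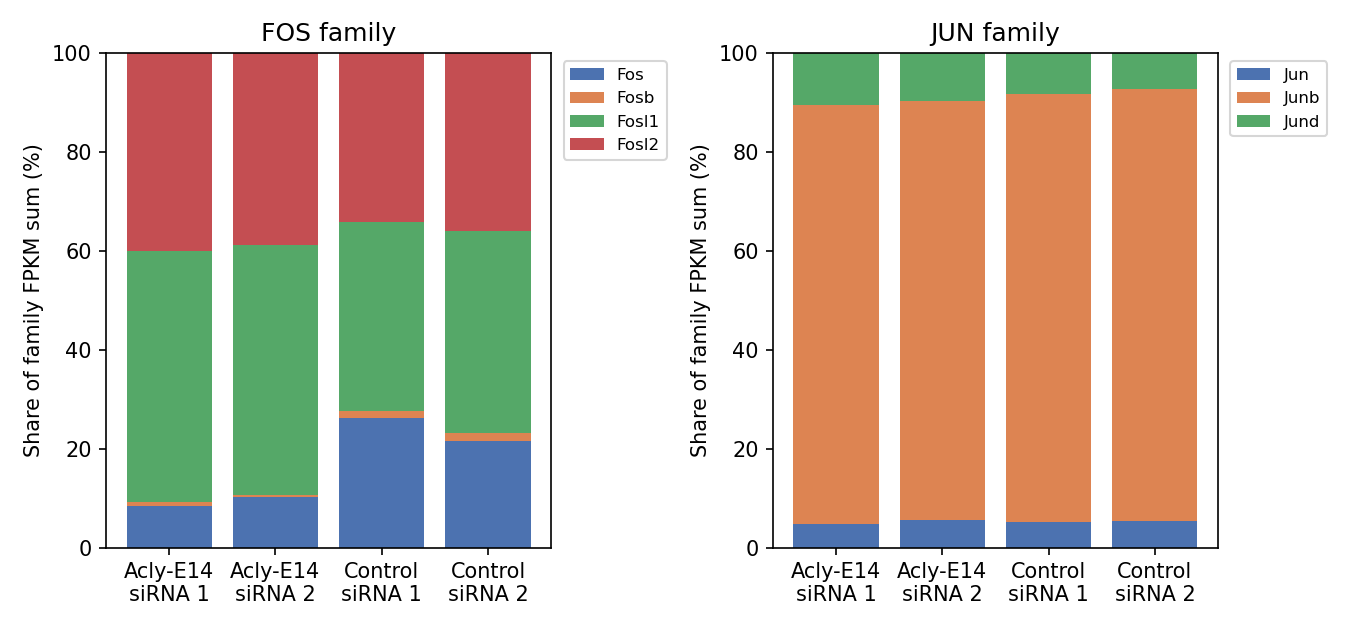
Share of each gene in the summed FPKM of its family, in percent, 1 bar per library. Fos took 8.45% and 10.3% of the FOS family in Acly-E14 siRNA libraries and 26.1% and 21.5% in controls, while Junb took over 84% of the JUN family in every library.

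Other bZIP factors, which compete with or partner the 10, moved in both directions. The counts for this list and those below stand beside 33.2% of all genes tested called, 17.3% higher and 15.9% lower. In the list of 9 BATF, JDP2, ATF2 and MAF factors, all tested, 1 rose and 3 fell, or 1 rose and 1 fell both with library totals and with limma on log2(FPKM + 1). Their median log2 fold change was 0.064. Mafk, a small MAF gene like Maff, stood at 304 and 271 CPM in Acly-E14 siRNA libraries, against 408 and 369 CPM in controls (log2 -0.43, edgeR adjusted p = 0.011). The Mafk call was lost without control library 1 (0.072). Mafg, the remaining small MAF gene, had a log2 fold change of -0.25 (edgeR adjusted p = 0.025), a call lost when any 1 library was left out (adjusted p between 0.051 and 0.145). Maf, a large MAF gene, had a log2 fold change of -0.33 (edgeR adjusted p = 0.024), a call lost without Acly-E14 siRNA library 1 (0.103) or control library 2 (0.101). In all, 2 of the 9 were called without Acly-E14 siRNA library 1, Acly-E14 siRNA library 2 or control library 1.

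Of 6 CNC and BACH factors, which pair with small MAF proteins, 5 were tested, 1 rose and 2 fell, and the median was 0.24. Library totals and limma on log2(FPKM + 1) each gave 1 higher and 1 lower. Nfe2l1 stood at 95.9 and 105 CPM in Acly-E14 siRNA libraries, against 136 and 138 CPM in controls (log2 -0.45, edgeR adjusted p = 0.0054). Nfe2l2, which encodes the oxidative stress factor NRF2, had a log2 fold change of -0.28 (edgeR adjusted p = 0.013), and Bach1, a repressor at the same DNA elements, of 0.24 (edgeR adjusted p = 0.029). Without control library 1 the adjusted p was 0.056 for Nfe2l2 and 0.141 for Bach1, and without control library 2 it was 0.072 and 0.095. The Nfe2l2 call was also lost without Acly-E14 siRNA library 1 (0.064) and the Bach1 call without Acly-E14 siRNA library 2 (0.154), and 1 of the 5 was called without either control library. Nfe2l3 had a log2 fold change of 0.36 (edgeR adjusted p = 0.25), which was 0.12 without Acly-E14 siRNA library 2, 0.19 without control library 1, 0.57 without Acly-E14 siRNA library 1 and 0.55 without control library 2.

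Of 7 tested C/EBP, NFIL3 and PAR genes, 2 rose and 2 fell, and the median was -0.14. Cebpd, an acute-phase factor whose exons share 562 bases with Spidr on the other strand, stood at 33.7 and 44.0 CPM in Acly-E14 siRNA libraries, against 14.1 and 18.1 CPM in controls (log2 1.27, edgeR adjusted p = 0.0047). Nfil3, which encodes a repressor, had a log2 fold change of 0.69 (edgeR adjusted p = 0.0034). Cebpa, a myeloid lineage factor, stood at 8.69 and 6.76 CPM in Acly-E14 siRNA libraries, against 18.1 and 16.98 CPM in controls (log2 -1.18, edgeR adjusted p = 0.0036). Cebpg had a log2 fold change of -0.33 (edgeR adjusted p = 0.013), a call lost without Acly-E14 siRNA library 2 (0.084) or control library 1 (0.073). Of 12 CREB and ATF genes, 2 rose and 3 fell, and the median was -0.17. With library totals, and likewise in the limma fit of log2(FPKM + 1), 3 rose and 1 fell. Among them Atf4 had a log2 fold change of -0.27, Atf6 of -0.25, Creb5 of -0.24 and Xbp1 of 0.31 (edgeR adjusted p = 0.016, 0.025, 0.024 and 0.021). Each of these 4 calls was lost without Acly-E14 siRNA library 2 or control library 1 (adjusted p between 0.064 and 0.131). The number called among the 12 was 2 without Acly-E14 siRNA library 1, 1 without Acly-E14 siRNA library 2, 0 without control library 1 and 3 without control library 2.

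Among 15 tested genes of the MAP kinase cascade that acts on AP-1, 1 rose, 1 fell and 13 did not pass. Library totals gave 3 higher and 0 lower, and limma on log2(FPKM + 1) gave 2 higher and 0 lower. The median log2 fold change was 0.0092. Mapk3, which encodes ERK1, stood at 131 and 134 CPM in Acly-E14 siRNA libraries, against 75.4 and 71.7 CPM in controls (log2 0.85, SE 0.058, edgeR adjusted p = 0.00089). Mapk9, which encodes the JUN kinase JNK2, had a log2 fold change of -0.31 (edgeR adjusted p = 0.033). The Mapk9 call was lost when any 1 library was left out (adjusted p between 0.058 and 0.137), and 1 of the 15 was called without Acly-E14 siRNA library 1, control library 1 or control library 2. Map3k1 and Map2k4 had log2 fold changes of -0.32 and 0.15 (edgeR adjusted p = 0.051 and 0.067).

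Of 6 genes of serum response factor and its cofactors, 1 rose and 1 fell, and the median was 0.037. Elk3 encodes a ternary complex factor that binds beside SRF at the Fos promoter. Elk3 stood at 31.6 and 38.6 CPM in Acly-E14 siRNA libraries, against 14.8 and 15.3 CPM in controls (log2 1.22, SE 0.12, edgeR adjusted p = 0.0020). Mrtfb had a log2 fold change of -0.36 (edgeR adjusted p = 0.027), a call lost when any 1 library was left out (adjusted p between 0.063 and 0.128), which left 1 of the 6 called. Elk1 and Mrtfa had log2 fold changes of 0.21 and -0.15 (edgeR adjusted p = 0.20 and 0.30).

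Other immediate early genes were more often higher than lower, beside 17.3% of all genes tested called higher and 15.9% lower. Of 16 tested, 8 rose, 3 fell and 5 did not pass, and the median log2 fold change was 0.48. By library totals 8 were higher and 1 lower, and by limma on log2(FPKM + 1) 8 were higher and 2 lower. Ier2 stood at 51.6 and 53.7 CPM in Acly-E14 siRNA libraries, against 24.1 and 24.6 CPM in controls (log2 1.11, edgeR adjusted p = 0.00086). Ccn1 and Ccn2, which encode matricellular proteins, had log2 fold changes of 1.70 and 1.33 (edgeR adjusted p = 0.0050 and 0.0031). Myc had one of 1.05 (edgeR adjusted p = 0.0036). Ccn2 shares 665 exon bases with Gm15270 on the other strand. Without Acly-E14 siRNA library 2, 7 of the 16 were called, and without control library 1, 5 were.

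Genes known as AP-1 targets also split. Of 18 tested, 10 rose, 5 fell and 3 did not pass, and the median log2 fold change was 0.27. The cyclin D1 gene Ccnd1 and the metalloproteinase inhibitor gene Timp1 had log2 fold changes of 2.49 and 2.46 (edgeR adjusted p = 0.00058 and 0.0011). Ccnd1 shares 1100 exon bases with a gene on the other strand. Hbegf, a growth factor gene, stood at 136 and 136 CPM in Acly-E14 siRNA libraries, against 82.3 and 81.9 CPM in controls (log2 0.73, edgeR adjusted p = 0.0010). The 5 lower genes were Mmp13, Tnf, Plau, Hmox1 and Spp1, with log2 fold changes between -1.20 and -0.32, named after their values were seen.

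**Figure D4:**
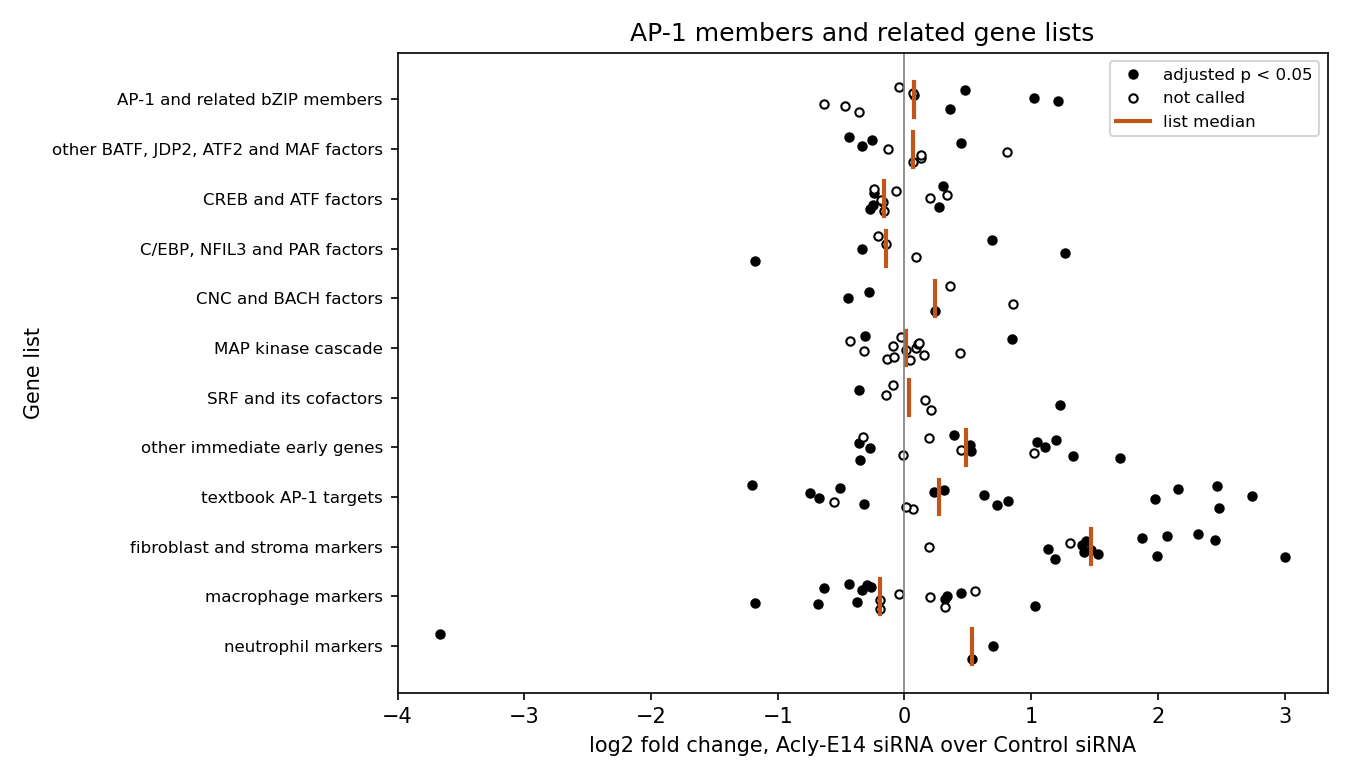
Log2 fold change, Acly-E14 siRNA over control siRNA, of every tested gene in the 10 bZIP genes and the other lists, with filled points at an edgeR adjusted p under 0.05 and a bar at each list's median. Fibroblast and stroma genes had a median of 1.47 and the 10 bZIP genes one of 0.074.

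The libraries with more Fosl1 and Fosl2, and with more RNA of many immediate early and AP-1 target genes, also held more RNA of fibroblast and stroma markers. All 15 markers were tested, 13 rose and 0 fell by edgeR, the median log2 fold change was 1.47, and none was at 0. At an unadjusted p under 0.05 none fell either. Their summed level was 3105 and 3838 CPM in Acly-E14 siRNA libraries, against 855 and 1315 CPM in controls. Pdgfrb, a stromal growth factor receptor gene, stood at 23.9 and 24.7 CPM in Acly-E14 siRNA libraries, against 3.68 and 5.19 CPM in controls (log2 2.45, edgeR adjusted p = 0.00089). Thy1, Bgn and Tagln had log2 fold changes of 2.31, 3.01 and 2.07 (edgeR adjusted p = 0.00085, 0.0014 and 0.0018). Tagln shares 1241 exon bases with Gm48529 on the other strand.

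Within each group, library 2 had the higher stroma sum and also the higher Fosl1, Fosl2 and Jun, but the lower Jund and Atf3, which is an order of 2 libraries only. The stroma sum of library 2 was 1.24 times that of library 1 with Acly-E14 siRNA and 1.54 times with control siRNA. For Fosl1 the same ratios were 1.23 and 1.17, and for Fosl2 they were 1.19 and 1.16. For Jun, whose groups overlapped, they were 1.15 and 1.06. For Jund they were 0.912 and 0.914, for Atf3 0.780 and 0.888, and for Batf 0.982 and 1.02. Between groups, the stroma sum was 3.20 times the control mean, beside 2.32 for Fosl1 and 2.04 for Fosl2. Col1a1 and Col1a2 were the largest parts of the sum in every library. With Acly-E14 siRNA they stood at 834 and 1036 CPM in library 1, and at 1074 and 1248 CPM in library 2. From library 1 to library 2 of that group, Thy1 (11.6 and 11.5 CPM) and Fap (1.46 and 0.959 CPM) fell, and the other markers rose. The part of the stroma markers in the members' values was not tested. In bulk RNA, more cells of a type and more RNA of that type per cell cannot be told apart.

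**Figure D5:**
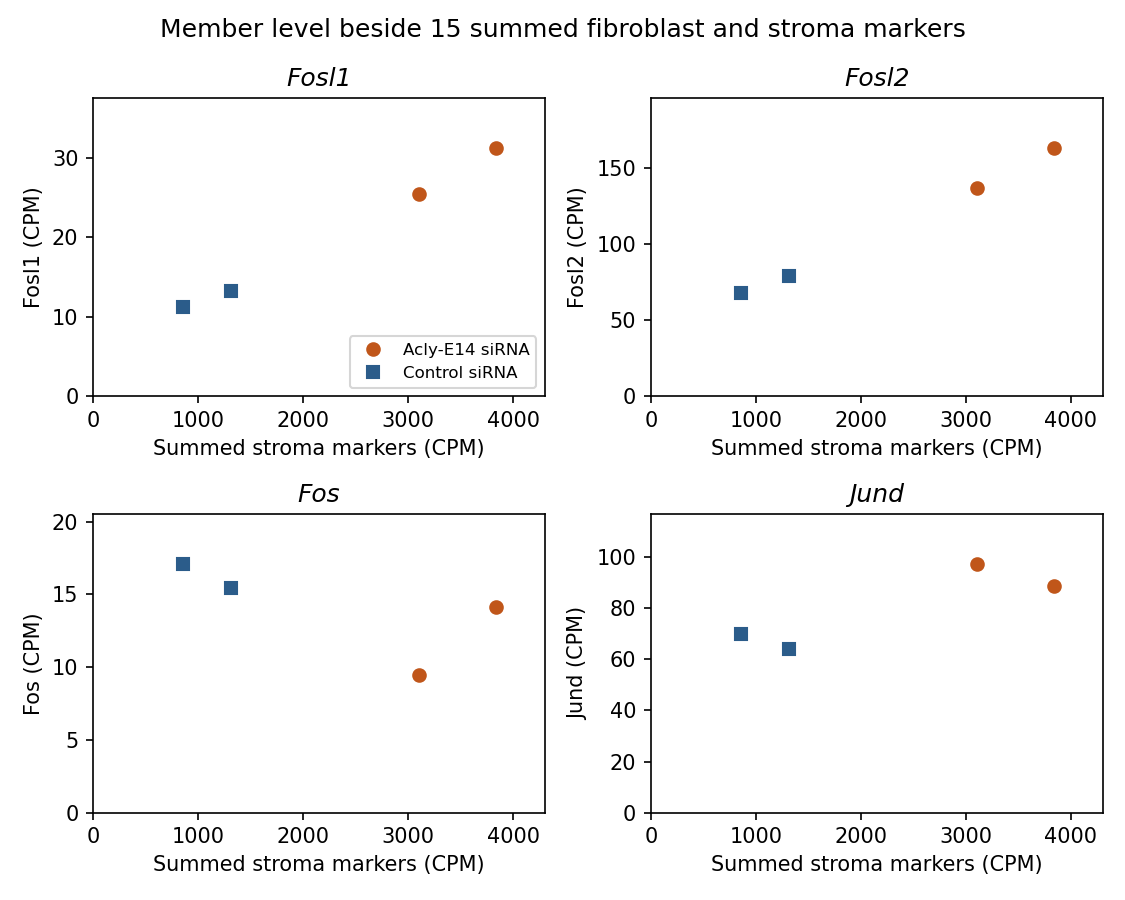
Level of Fosl1, Fosl2, Fos and Jund (CPM, y axis) beside the summed level of 15 fibroblast and stroma markers (CPM, x axis), 1 point per library, circles for Acly-E14 siRNA and squares for control siRNA. In each group the library with the higher stroma sum also had more Fosl1 and Fosl2 but less Jund. That library had more Fos with Acly-E14 siRNA and less Fos with control siRNA.

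Macrophage markers moved both ways in the same libraries. Of those 18, 4 rose and 8 fell, and the median was -0.19. The split depended on the scaling, with 4 higher and 5 lower by library totals and 5 higher and 5 lower by limma on log2(FPKM + 1). Their summed level was 10833 and 11320 CPM in Acly-E14 siRNA libraries, against 11863 and 11030 CPM in controls. Lyz2, which was not called, was the largest part of that sum in every library. It stood at 4399 and 4804 CPM in Acly-E14 siRNA libraries, against 4932 and 4550 CPM in controls. Cd14, the LPS co-receptor gene, had a log2 fold change of 1.03 and the lysosomal gene Cd68 one of -0.68 (edgeR adjusted p = 0.00084 and 0.0037). The mannose receptor gene Mrc1 had one of -0.63 (edgeR adjusted p = 0.0017). Cebpa, given above, is in this list too. Without Acly-E14 siRNA library 2, control library 1 or control library 2, the number called was 6, 5 and 6. Of 8 neutrophil markers 3 were tested, Csf3r and S100a8 higher and S100a9 lower. Csf3r had a log2 fold change of 0.53 (edgeR adjusted p = 0.0043). The S100a8 call (adjusted p = 0.043) did not hold when Acly-E14 siRNA library 2, control library 1 or control library 2 was left out (0.216, 0.083 and 0.152). S100a9 stood at 0.137 and 0.0457 CPM in Acly-E14 siRNA libraries, against 1.34 and 1.12 CPM in controls.

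Fosl2 had the smallest p of the 10 genes. Among 7550 named genes with a mean of at least 10 CPM, those whose log2 CPM, centred on the control mean, lay nearest to that of Fosl2 over the 4 libraries were Praf2, Myc, Cnn3, Fads1 and Lrig1. Their Euclidean distances from Fosl2 ran from 0.021 for Praf2 to 0.080 for Lrig1 on the log2 scale. Myc, a growth-promoting transcription factor gene, stood at 22.7 and 27.6 CPM in Acly-E14 siRNA libraries, against 11.4 and 12.9 CPM in controls. Cnn3, which encodes the actin-binding protein calponin 3, stood at 108 and 130 CPM in Acly-E14 siRNA libraries, against 56.2 and 61.4 CPM in controls. Likeness over 4 libraries in 2 groups describes little more than a similar fold change.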

How the data were processed

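The authors deposited 1 table of raw whole-number counts beside FPKM values for each gene. HISAT2, StringTie 1.3.0, edgeR and the build mm10 are named in the submitters' processing notes with no role. How reads were counted, whether strand was used and which gene models were taken is not given in the sources used here. Per the labels' protocols, both a stranded total RNA kit and mRNA capture beads were used. Of 49103 deposited FPKM values above 0, 49103 equalled the FPKM recomputed from counts and an implied gene length within a relative tolerance of 0.001, so recomputed FPKM were used in all 4 libraries. The number of value columns not used was 1, because its name has no replicate number. Symbols matched 34267 of 34745 IDs. Coordinates and exon overlaps come from GENCODE M21 on mm10. The implied lengths of Fos and Jund were longer than their whole GENCODE M21 genes, so the gene models used in counting may differ from these. The exon overlaps given may then not be those of the models counted.

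Counts were tested with edgeR 4.0.16 (R 4.3.3): filterByExpr with a minimum count of 10, trimmed-mean (TMM) scaling, the quasi-likelihood F test without covariates, and Benjamini-Hochberg adjustment over all 13108 genes tested. Standard errors and 95% intervals are those implied by the F statistic. The test was tried on simulated counts first. Alternatives were a block for the replicate number, the omission of single libraries, RLE size factors, the DESeq2 1.42.0 Wald test, no filter, library totals, limma 3.58.1 on log2(FPKM + 1), an adjusted p under 0.1 and a log2 fold change beyond 1. With a library left out, the lone library of its group is assumed to vary like the other group. The members and lists were chosen with earlier results of these data known. Genes named are Acly, the 10 members, the 4 of smallest p in each other list and the 5 nearest to the member of smallest p. Some genes that this rule names are not reported here. A planned comparison of protein sequences was not run. Libraries of a group differed by more than sampling noise (chi-square over degrees of freedom 11.6 for Acly-E14 siRNA and 9.87 for control siRNA).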

Additional observations from a re-analysis of the deposited data

How the results depend on the processing

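Of 342 gene values under alternatives that kept all 4 libraries, 314 kept their direction and their side of the threshold, as did 179 of 228 with a library left out. The 4 calls of Fosl1, Fosl2, Jund and Batf were made under every alternative that kept all libraries, and 2 of them passed a log2 fold change beyond 1. Without 1 library the members called were not always these 4, since Batf could drop out and Atf3 or Fos could be called lower. Log2 fold changes ranged from 1.06 to 1.35 for Fosl1 (adjusted p at most 0.027), 0.89 to 1.15 for Fosl2 (0.023), 0.41 to 0.54 for Jund (0.041) and 0.34 to 0.37 for Batf (0.061). They ranged from -0.79 to -0.20 for Fos, -0.55 to -0.19 for Atf3, -0.40 to -0.30 for Acly, -0.024 to 0.17 for Jun and -0.13 to 0.034 for Maff. Jun turned to -0.024 without Acly-E14 siRNA library 2. Maff turned to 0.047 with library totals, 0.045 with limma on log2(FPKM + 1) and 0.034 without control library 1. The share of Fosl1 and Fosl2 in the FOS family differed by 15.5 percentage points, 13.3 to 17.6 without 1 library.

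The replicate numbers are shared between groups, but nothing in the labels says that they pair the libraries. Deviations of same-numbered libraries had a correlation of 0.19 across genes. With the replicate block, 4896 genes were called, Atf3 was called lower (log2 -0.37, adjusted p = 0.0068) and 5 MAP kinase genes were called.

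Over all genes, 1201 passed a log2 fold change beyond 1, and 2088 to 3215 were called without 1 library. Beyond 1 on the log2 scale the numbers called were 0 for the BATF, JDP2, ATF2 and MAF list, 0 for CREB and ATF, 0 for CNC and BACH, 0 for MAP kinase, 1 for SRF, 2 for C/EBP, 5 for immediate early genes, 6 for AP-1 targets, 2 for macrophage and 1 for neutrophil markers. The BATF list had 2 called with no filter, with library totals and with limma. The MAP kinase list had 1 with no filter and 4 at an adjusted p under 0.1. The SRF list had 1 with library totals and 1 with limma. Without 1 library the numbers called were 2 to 3 (BATF list), 0 to 3 (CREB), 3 to 4 (C/EBP), 1 to 2 (CNC), 1 to 2 (MAP kinase), 1 (SRF), 5 to 12 (immediate early), 11 to 12 (AP-1 targets), 9 to 14 (stroma), 5 to 12 (macrophage) and 2 to 4 (neutrophil). The cause was not tested. Depth limits Fosb most, with 12 to 27 counts per library.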

Other observations

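Some kinase and transcription factor genes of the lists differed widely between libraries of a group, and they are given as values, chosen after they were seen. Mapk14, which encodes the stress kinase p38 alpha, stood at 62.1 and 29.4 CPM in Acly-E14 siRNA libraries, against 87.9 and 35.4 CPM in controls, with library 1 the higher one in each group. Atf7 stood at 50.1 and 47.0 CPM in Acly-E14 siRNA libraries, against 64.3 and 24.7 CPM in controls. Elk4 stood at 32.3 and 22.2 CPM in Acly-E14 siRNA libraries, against 29.6 and 19.2 CPM in controls. Egr1, an immediate early zinc finger gene whose groups did not overlap, stood at 17.4 and 32.4 CPM in Acly-E14 siRNA libraries, against 10.1 and 14.3 CPM in controls, and was not called (log2 1.02, edgeR adjusted p = 0.054).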
